A study of Mus musculus with 12 samples.

Results

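Erlotinib hearts were compared with water hearts across all genes listed in the deposited count files. The comparison uses the 3 libraries titled Erlotinib_1374, Erlotinib_1375 and Erlotinib_1376 and the 3 titled Control_1365, Control_1366 and Control_1367, which are 6 of the 12 samples of the series. All are polyA RNA libraries from hearts of female FVB mice. The first group had received erlotinib at 50 mg/kg/day for 14 days, and the other group is labelled as given water. Neither the dosing route nor the age of the mice is stated in the labels. The remaining 6 samples are 3 heart libraries of sunitinib at 40 mg/kg/day and 3 of sorafenib at 30 mg/kg/day, each for 14 days, of the same sex and strain. They enter as other drug-treated hearts and in the steps that use all 12 libraries. These are the filter on low counts, the normalisation, the estimate of spread, the mean that scores are relative to, and the fit with a covariate. The title of the study asks how the 3 kinase inhibitors act on kinases and transcripts of the mouse heart in relation to cardiotoxicity.

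Erlotinib blocks the kinase of the epidermal growth factor receptor (EGFR), a member of the ErbB family of receptor tyrosine kinases. ErbB receptors bind ligands such as epidermal growth factor, heparin-binding EGF and the neuregulins, and signal through the RAS, RAF, MEK and ERK cascade, through PI3K and AKT, and through STAT proteins. In the adult heart, neuregulin from the endothelium acts on ErbB4 and ErbB2 of cardiomyocytes, a pathway known for its part in cardiomyocyte survival and contraction.

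Of 21705 genes listed per sample, 13440 passed a filter on low counts and were tested. The erlotinib libraries held 15.8, 16.1 and 15.8 M expected counts and the water libraries 14.4, 14.3 and 16 M (M, 1e+06). Levels are given as counts per 1e+06 (CPM, normalised for library composition), in the order in which the libraries are named above. A gene was called where its adjusted p (edgeR quasi-likelihood test, Benjamini-Hochberg over all 13440 genes) was under 0.05, and log2 fold changes are erlotinib over water with the SE of the fit. The labels do not state that each library is a separate animal, so a p value here covers only library-to-library spread, which may be technical. Cardiomyocyte markers marked all 6 libraries as heart, with summed levels of 102000 to 112000 CPM in erlotinib hearts and 97500 to 103000 CPM in water hearts. No pair of libraries within a group was a duplicate.

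Few genes passed the test between erlotinib and water hearts, and most of those changed by modest amounts. How many genes differ is not measured by the number called. In all, 39 genes were called (0.29% of those tested), of which 23 were higher with erlotinib (0.171%) and 16 lower (0.119%). The median absolute log2 fold change of the called genes was 0.63, 7 of them changed by more than 2-fold, and 17 by less than 1.5-fold. All 39 had no overlap between the 3 erlotinib and the 3 water libraries, but over all genes 10.2% lay without overlap above water and 10.4% below it, so a lack of overlap alone marks no gene. Without adjustment 2090 genes had p under 0.05, and DESeq2 called 363 on the same counts, with 37 of the 39 among them. The median log2 fold change of all genes was -0.008, with 48.2% of genes above 0.

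**Figure D1:**
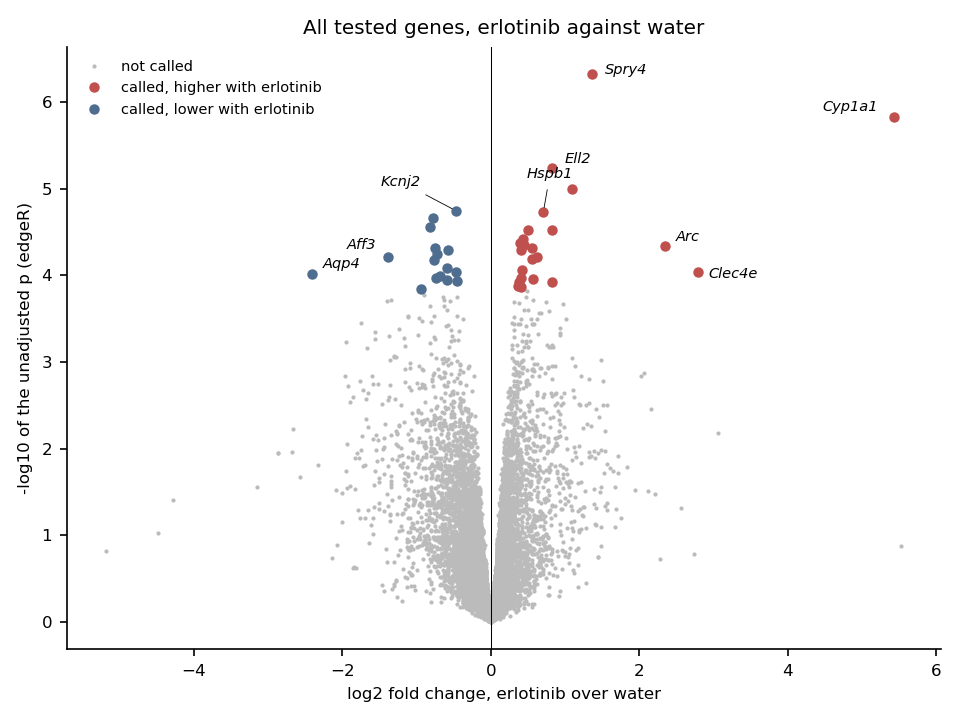
Log2 fold change of erlotinib over water hearts (x axis) against -log10 of the unadjusted edgeR p (y axis) for the 13440 tested genes, with 23 genes called higher and 16 called lower. Spry4 and Cyp1a1 lie highest, and most called genes lie within 2-fold of water.

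How many genes were called depended on which libraries entered. Leaving out 1 erlotinib library gave 22 calls without Erlotinib_1374, 3 without Erlotinib_1375 and 2 without Erlotinib_1376. Leaving out 1 water library gave 0 calls without Control_1365, 235 without Control_1366 and 0 without Control_1367. The number of genes with an unadjusted p under 0.05 was 1637 without Control_1365 and 1614 without Control_1367. Since none of the 39 genes overlapped between the groups, leaving out a library could not turn a sign, and only the sizes are informative. The smallest log2 fold change in any of the 6 fits was 0.804 of the value with all libraries. Spry4 and Cyp1a1 passed in 4 of the 6 fits, 12 genes passed in 2 and 25 in 1, and no gene passed in 5 or 6. Of the 39 adjusted p values, 36 were over 0.03.

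**Figure D2:**
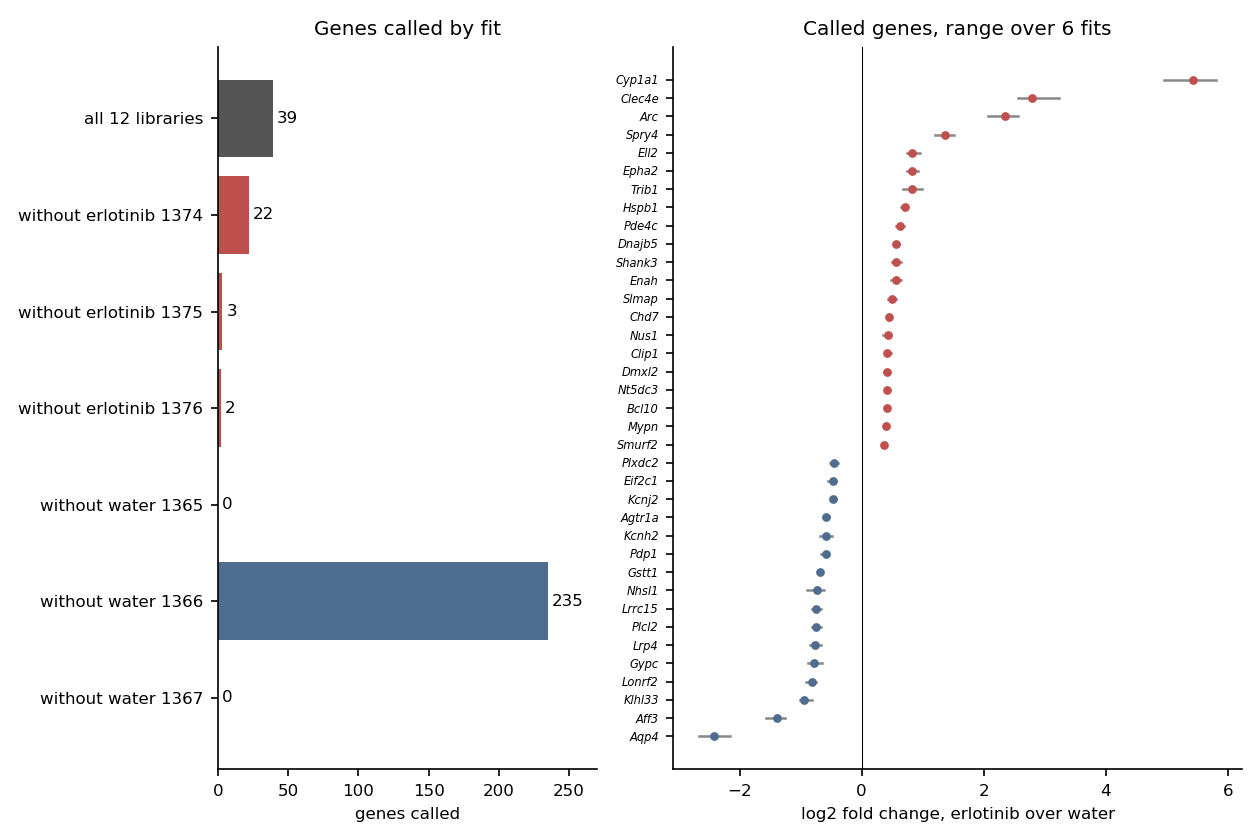
Left, number of genes called with all 12 libraries and without each erlotinib or water library. Right, log2 fold change of 37 of the 39 called genes (points) with its range over the 6 fits that leave out 1 library (lines). The counts run between 0 and 235, and the lines are longest for Cyp1a1, Clec4e, Arc and Aqp4.

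Spry4, an inhibitor of receptor tyrosine kinase signalling to ERK whose transcription ERK itself induces, was at 35.8, 29.0 and 44.9 CPM in erlotinib hearts, against 14.6, 14.8 and 13.0 CPM in water hearts. The lowest erlotinib library was nearly 2 times the highest water library, and the log2 fold change was 1.37 ± 0.15 (adjusted p = 0.00642), the smallest p of all genes. Its range over the 6 fits was 1.2 to 1.51. Epha2, a receptor tyrosine kinase of the Eph family, had 15.5, 16 and 15.9 CPM in erlotinib hearts, against 7.72, 8.90 and 10.0 CPM in water hearts (log2 0.83 ± 0.13, adjusted p = 0.0385). The 3 erlotinib libraries lay within 0.5 CPM of each other. Trib1, a pseudokinase that brings substrates to a ubiquitin ligase, had 48.9, 66.0 and 52.2 CPM in erlotinib hearts, against 30.0, 38.6 and 26.0 CPM in water hearts (log2 0.82 ± 0.15, adjusted p = 0.0447). Ell2, a factor that speeds RNA polymerase II along genes, had 44.7, 56.2 and 60.9 CPM in erlotinib hearts, against 27.8, 32.9 and 30.0 CPM in water hearts (log2 0.83 ± 0.11, adjusted p = 0.0254). Both groups were clear of each other for Trib1 and for Ell2. Arc, an immediate early gene best known in neurons, had 11.7, 12.1 and 14.4 CPM in erlotinib hearts, against 2.82, 3.25 and 1.49 CPM in water hearts (log2 2.35 ± 0.37, adjusted p = 0.0385).

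**Figure D3:**
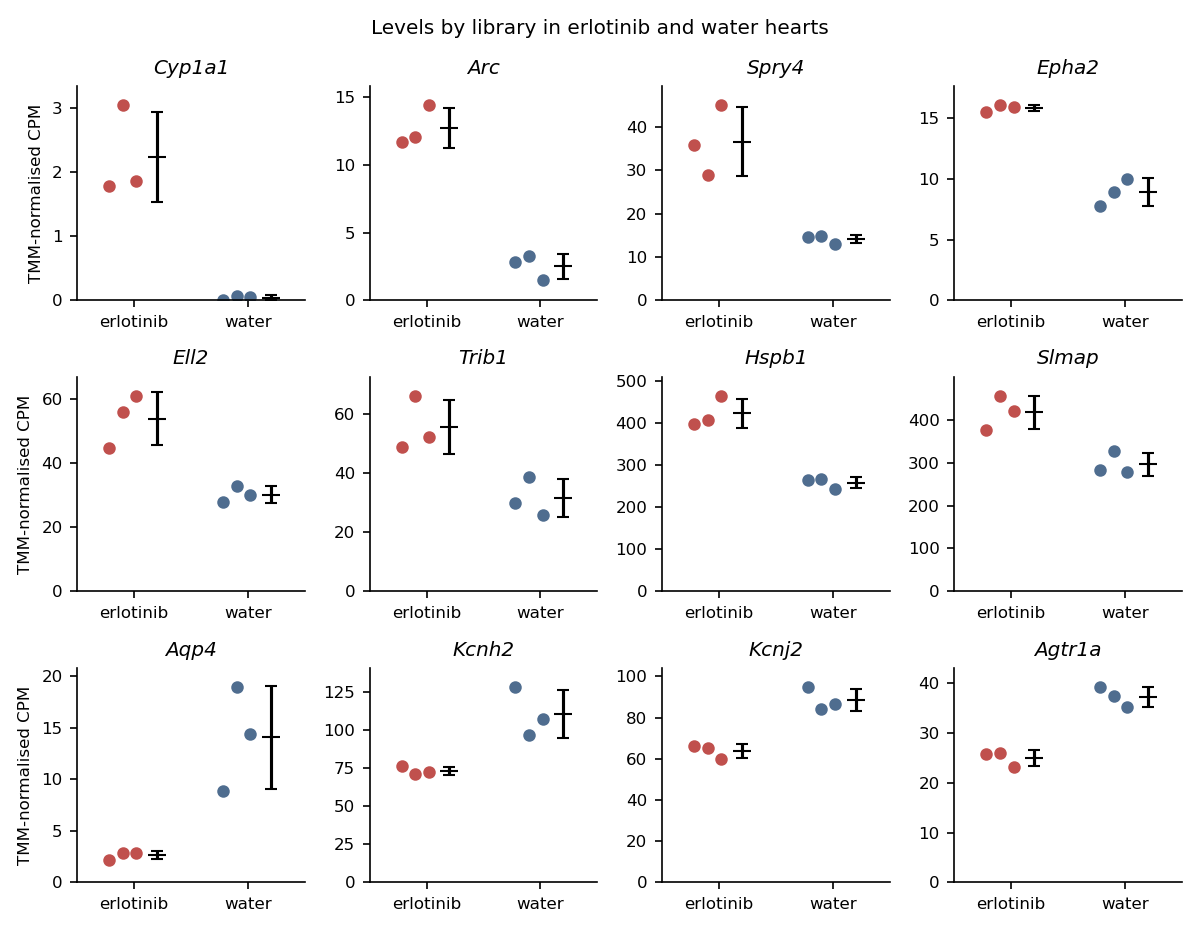
Level in each library (points, TMM-normalised CPM, linear axes from 0) with the mean and SD of 3 libraries (bars) for 12 called genes, erlotinib left and water right in each panel. The groups do not overlap in any panel, and Cyp1a1 is near 0 in all 3 water libraries.

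On the list of ERK feedback and ERK-induced genes, 12 of 18 genes tested were above 0 with a median of 0.12, and Spry4 and Epha2 were the only members called. The median was 0.2 without Control_1367. Dusp6, an ERK phosphatase, had 34.9, 27.0 and 31.1 CPM in erlotinib hearts, against 18.0, 22 and 29.4 CPM in water hearts, where the groups overlapped (log2 0.42 ± 0.15, adjusted p = 0.209). Etv1, an ETS transcription factor, had 10.2, 12.8 and 8.95 CPM in erlotinib hearts, against 13.0, 16.2 and 17.3 CPM in water hearts (log2 -0.54 ± 0.16, adjusted p = 0.151). The kinases of the cascade itself, 15 RAS, RAF, MEK, ERK and downstream kinase genes, had 14 members above 0, a median of 0.07 and no call.

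The ErbB receptors, the family that holds the drug's target, did not pass the test. Egfr had 6.21, 7.48 and 9.29 CPM in erlotinib hearts, against 5.86, 10.7 and 10.6 CPM in water hearts (log2 -0.24 ± 0.28, adjusted p = 0.728). The log2 fold change of Erbb2, the coreceptor without a ligand of its own, was -0.28 ± 0.16, that of the neuregulin receptor Erbb4 -0.25 ± 0.17 and that of Erbb3 -0.15 ± 0.19 (adjusted p = 0.436, 0.5 and 0.758). Among 7 ligands tested, Hbegf, which encodes heparin-binding EGF, had 47.6, 75.9 and 59.8 CPM in erlotinib hearts, against 28.1, 37.8 and 26.4 CPM in water hearts (log2 0.99 ± 0.25, adjusted p = 0.111). Nrg1, neuregulin 1, had 1.41, 0.951 and 1.07 CPM in erlotinib hearts, against 0.551, 0.283 and 0.358 CPM in water hearts (log2 1.51 ± 0.38, adjusted p = 0.0997). Neither gene overlapped between the groups, and neither passed. Errfi1, which encodes a direct inhibitor of the EGFR kinase, had 125, 124 and 173 CPM in erlotinib hearts, against 32.6, 97.2 and 42.0 CPM in water hearts (log2 1.30 ± 0.36, adjusted p = 0.151), and Control_1366 lay close to the erlotinib libraries.

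The largest change was in a gene of drug metabolism. Cyp1a1 encodes a cytochrome P450 that oxidises aromatic compounds, is induced through the aryl hydrocarbon receptor, and in humans takes part in the metabolism of erlotinib outside the liver. It had 28, 48 and 28 expected counts in erlotinib hearts, against 0, 1 and 1 in water hearts, which is 1.79, 3.04 and 1.87 CPM against 0, 0.0707 and 0.0597 CPM. A count of 0 in Control_1365 allows a level of up to 0.207 CPM (3 counts). The summed counts, 104 with erlotinib and 2 with water, gave a ratio of 50.8 after scaling for library size, with a 95% exact interval of 13.7 to 425 that covers counting error only. The fitted log2 fold change was 5.43 ± 0.65 (adjusted p = 0.00993) and depends on how such low counts are moderated. In sunitinib and sorafenib hearts Cyp1a1 had 0 or 1 count in every library. It thus passed the filter on low counts, and was tested, only through the erlotinib libraries, where it was high. Of 25 genes of drug metabolism tested, 12 were above 0 with a median of -0.01, and Cyp1a1 was the only one called. Ahr, the receptor, had 5.31, 5.33 and 5.01 CPM in erlotinib hearts, against 13.5, 6.01 and 10.2 CPM in water hearts (log2 -0.93 ± 0.22, adjusted p = 0.0899). Gstt1, a glutathione transferase, fell, with 11.6, 10.9 and 11.5 CPM in erlotinib hearts, against 18.6, 18.1 and 18.0 CPM in water hearts (log2 -0.68 ± 0.12, adjusted p = 0.0447).

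Pdp1, the phosphatase that activates pyruvate dehydrogenase, had 25.6, 29.9 and 25.2 CPM in erlotinib hearts, against 42.7, 42.9 and 36 CPM in water hearts (log2 -0.59 ± 0.10, adjusted p = 0.0447). The list of glucose uptake and glycolysis, with 30 genes tested, had a median of 0.06 and Pdp1 as its only call. The glycolytic enzymes Pfkp (log2 0.60 ± 0.17, adjusted p = 0.153) and Gapdh (log2 0.23 ± 0.07, adjusted p = 0.148) were above water in all libraries without passing. Fatty acid uptake and oxidation had 21 of 41 genes above 0 and a median of 0.02, and none was called. Within it the acyl-CoA thioesterase Acot1 was at a log2 fold change of -1.06 ± 0.35 (adjusted p = 0.202). The 41 nuclear subunits of oxidative phosphorylation spanned -0.07 to 0.15 with a median of 0.01, and none lay without overlap. Ppargc1a, a coactivator of mitochondrial genes, was at 0.60 ± 0.29 on the log2 scale with overlapping groups (adjusted p = 0.365), and Cd36, the fatty acid transporter, at 0.14 ± 0.11 (adjusted p = 0.578).

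Hspb1, a small heat shock protein of muscle, had 398, 409 and 464 CPM in erlotinib hearts, against 265, 268 and 243 CPM in water hearts (log2 0.71 ± 0.11, adjusted p = 0.0385). Its 3 erlotinib values were all above its 3 water values by over 100 CPM. Of 30 heat shock proteins and cochaperones tested, 17 lay above water without overlap, where 10.2% of all genes did. In this list 28 were above 0 with a median of 0.21, and Hspb1 was the only call. The median was 0.17 to 0.21 in the 6 fits that leave out a library. Hsp90aa1, the inducible HSP90, had 282, 244 and 262 CPM in erlotinib hearts, against 189, 189 and 193 CPM in water hearts, and just missed the threshold (log2 0.47 ± 0.09, adjusted p = 0.0537). Hspa8, the constitutive HSP70, was at a log2 fold change of 0.37 ± 0.09 (adjusted p = 0.079), and the cochaperone Dnaja4 at one of 0.34 ± 0.08 (adjusted p = 0.0912). Dnajb5, a cochaperone of the HSP40 family that is not on the list, rose, with 188, 204 and 209 CPM in erlotinib hearts, against 126, 139 and 139 CPM in water hearts (log2 0.57 ± 0.10, adjusted p = 0.0447). In the endoplasmic reticulum list, 22 of 28 genes were above 0 with a median of 0.09 and no call. That median was 0.05 without Control_1365 or without Erlotinib_1374 and 0.16 without Control_1367. Its members of smallest p were Atf4, the transcription factor of the integrated stress response (log2 0.47 ± 0.10, adjusted p = 0.0613), and its target Chac1 (log2 0.81 ± 0.21, adjusted p = 0.111). On the same list Trib3 lay below water without overlap (log2 -0.63 ± 0.22, adjusted p = 0.208). Ddit3 was at a log2 fold change of -0.31 ± 0.20 and Asns at one of 0.04 ± 0.25, both with overlapping groups.

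Heat shock genes carry binding sites for the factor HSF1, built of the unit GAA and its reverse TTC, so their promoters were searched for a head-to-head or tail-to-tail pair. The 250 bases before the start were read from RefSeq (GRCm38.p6, a later build than the mm9 of the count files), for 24 of the 30 genes. The pair GAANNTTC or the pair TTCNNGAA, which read the same on both strands, was found in 11 of the 24 (45.8%), against 1290 of 10597 promoters of tested genes (12.2%). The pair GAANNTTC alone was in 37.5% of them, against 6.11% of all. The whole window of Hspb1 (chr5:135887669-135887918, plus strand) is shown because Hspb1 is the called member, and it holds GAANNTTC at -117 and at -97 from the start. Bases of a pair are in capitals, here and in the windows that follow.
Hspb1: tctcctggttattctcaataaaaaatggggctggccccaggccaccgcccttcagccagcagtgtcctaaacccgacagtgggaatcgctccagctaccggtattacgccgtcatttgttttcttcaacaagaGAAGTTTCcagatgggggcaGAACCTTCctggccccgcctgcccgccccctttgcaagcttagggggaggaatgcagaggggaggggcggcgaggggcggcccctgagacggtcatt

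Short windows around the pair are shown for the other 3 genes that hold one and lay above water without overlap, and for the shared promoter of Hspe1 and Hspd1. These are Dnaja4 (chr9:54699454-54699529, plus strand), Dnajb4 (chr3:152193846-152193874, minus strand), Hsph1 (chr5:149636347-149636384, minus strand) and Hspe1 (chr1:55088044-55088091, plus strand).
Dnaja4: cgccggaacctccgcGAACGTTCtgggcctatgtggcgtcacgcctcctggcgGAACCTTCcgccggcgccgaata
Dnajb4: ttcgttcgttcgctgTTCTAGAAagtaca
Hsph1: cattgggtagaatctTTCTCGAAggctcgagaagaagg
Hspe1: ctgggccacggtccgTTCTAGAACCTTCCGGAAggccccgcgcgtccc
Beside these windows, the log2 fold change of the cochaperone Dnajb4 was 0.49 ± 0.12 (adjusted p = 0.0997) and that of the HSP110 chaperone Hsph1 0.40 ± 0.13 (adjusted p = 0.186). Hspe1 and Hspd1, the mitochondrial chaperonins, hold 3 overlapping pairs in their shared promoter and had log2 fold changes of 0.04 ± 0.09 and -0.03 ± 0.07 (adjusted p = 0.864 and 0.862). The other members that hold a pair, Dnaja1, Fkbp4, Hspa1a, Hspa1b and Hspb6, overlapped between the groups, and their windows are not shown. Their log2 fold changes were 0.29, 0.0, 1.29, 1.19 and 0.08. No pair was found for Hsp90aa1 and Hspa8, which lay above water without overlap. A match describes the letters of the window and is no measure of binding.

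Immediate early genes, which growth factors and stress switch on within minutes, were above 0 in 27 of 28 cases with a median of 0.93. Arc was the only member called, and 16 lay above water without overlap, where 10.2% of all genes did. Junb, an AP-1 subunit, had 70.1, 71.4 and 71.9 CPM in erlotinib hearts, against 30.3, 38.4 and 43.2 CPM in water hearts (log2 0.93 ± 0.19, adjusted p = 0.0639). Btg2, an antiproliferative early gene, had 83.6, 144 and 83.7 CPM in erlotinib hearts, against 38.6, 49.4 and 45.4 CPM in water hearts (log2 1.22 ± 0.28, adjusted p = 0.0936), and Klf6 was at a log2 fold change of 0.49 ± 0.12 (adjusted p = 0.0906). The median of the list was 0.73 without Control_1365 and 1.13 without Control_1366. The cAMP response element TGACGTCA, a site through which CREB acts on early genes, was in 3 of the 23 members with a promoter (13.0%), against 2.97% of all promoters. Of the other motifs searched in these 23, the AP-1 site TGANTCA was in 0, against 5.63% of all, the CArG box in 2 (8.7%), against 1.46%, and the glucocorticoid pair ACANNNTGT in 1 (4.35%), against 4.48%. The cAMP response element also stood in 2 of the 18 genes called higher that had a promoter, and in 0 of 9 called lower. The glucocorticoid pair had the same counts, 2 of the 18 and 0 of the 9. The 2 with the cAMP response element are Epha2 (chr4:141301173-141301210, plus strand) and Ell2 (chr13:75707271-75707308, plus strand). Their windows are shown beside that of Btg2 (chr1:134079299-134079336, minus strand) with the element in capitals. Either heat shock pair was in 1 of the 18, and the CArG box in 1. In the 9 called lower, GAANNTTC was in 1, TTCNNGAA in 1 and the CArG box in 0. The AP-1 site was in 0 of the 18 and in 1 of the 9. Shares are not compared for the called genes, since 18 of 23 and 9 of 16 had a promoter to search.
Epha2: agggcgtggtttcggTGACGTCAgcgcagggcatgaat
Ell2: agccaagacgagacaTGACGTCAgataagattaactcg
Btg2: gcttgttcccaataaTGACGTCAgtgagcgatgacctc

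Of 26 glucocorticoid targets, 25 were above 0 with a median of 0.56, and none was called. The list score (mean log2 CPM of the members relative to their mean over all 12 libraries) was 0.466, 0.600 and 0.799 in erlotinib hearts, against -0.600, 0.538 and -0.200 in water hearts, so Control_1366 lay within the range of the erlotinib libraries. Cebpd, a transcription factor induced by glucocorticoids, had 123, 130 and 154 CPM in erlotinib hearts, against 29.8, 112 and 55.7 CPM in water hearts (log2 1.04 ± 0.39, adjusted p = 0.256). Sgk1, a kinase of salt handling, had 141, 130 and 169 CPM in erlotinib hearts, against 60.6, 132 and 90.5 CPM in water hearts (log2 0.64 ± 0.27, adjusted p = 0.296). The median of the list was 0.89 without Control_1366 and 0.41 without Control_1365. The glucocorticoid pair ACANNNTGT was in 4 of the 23 targets with a promoter (17.4%), against 4.48% of all promoters. The heat shock pair TTCNNGAA was also in 4, against 7.1% of all. Of 24 genes of NF-kB and inflammation, 21 were above 0 with a median of 0.51 and no call. The scores were 0.325, 0.961 and 0.332 in erlotinib hearts, against -0.19, 0.161 and 0.0893 in water hearts, without overlap, and the median was 0.32 without Erlotinib_1375. Neutrophil markers, described with the other cell types, had a median of 1.35 beside them. On the list of NF-kB and inflammation, Ptgs2, the inducible cyclooxygenase, had 5.06, 5.45 and 6.08 CPM in erlotinib hearts, against 1.1, 1.77 and 4.00 CPM in water hearts (log2 1.25 ± 0.38, adjusted p = 0.155). Nfkb2 was at a log2 fold change of 0.37 ± 0.10 (adjusted p = 0.105). Bcl10, an adaptor of NF-kB activation that is not on the list, rose by 0.41 ± 0.08 on the log2 scale (adjusted p = 0.0477). Socs3, a target and inhibitor of STAT3, had 22.3, 59.7 and 21.2 CPM in erlotinib hearts, against 6.13, 21.4 and 8.54 CPM in water hearts, where the groups overlapped (log2 1.52 ± 0.54, adjusted p = 0.229). Stat3 itself was at a log2 fold change of 0.17 ± 0.13 (adjusted p = 0.578).

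Among potassium channels 2 genes fell, Kcnh2 and Kcnj2. Kcnh2 encodes the pore of the rapid delayed rectifier, the channel whose block by drugs lengthens the QT interval in humans. It had 76.4, 71.1 and 72.5 CPM in erlotinib hearts, against 128, 96.9 and 107 CPM in water hearts (log2 -0.59 ± 0.11, adjusted p = 0.0447). Kcnj2, the inward rectifier Kir2.1 that holds the resting potential, had 66.1, 65.4 and 60.0 CPM in erlotinib hearts, against 94.6, 84.3 and 86.5 CPM in water hearts (log2 -0.47 ± 0.07, adjusted p = 0.0385). For both genes each erlotinib library was below each water library. Of 23 potassium channel genes tested, 18 were below 0 with a median of -0.31. Without overlap, 9 lay below water and 4 above it, where 10.4% of all genes lay below and 10.2% above. Kcnd2, which carries the transient outward current of the mouse ventricle, was at a log2 fold change of -0.59 ± 0.21 (adjusted p = 0.225), and Kcnq1, the slow delayed rectifier, at one of -0.36 ± 0.14 (adjusted p = 0.262). Kcna5, the ultrarapid channel, lay on the other side of 0, with 56.4, 57.8 and 63.4 CPM in erlotinib hearts, against 28.3, 41.4 and 29.5 CPM in water hearts (log2 0.84 ± 0.18, adjusted p = 0.0727). Kcnip2, the subunit of the transient outward channel, was also above 0 (log2 0.27 ± 0.09, adjusted p = 0.208). Without the 4 members that also mark atrium and conduction tissue, 15 of 19 were below 0 with a median of -0.30. Markers of atrium and conduction tissue had a median of -0.57, with scores that overlapped between the groups. In a fit with the score of these markers as a covariate, the median of the channel list was -0.36. The part of this tissue in the channel values was not tested further. Slmap, a membrane protein of the sarcolemma and sarcoplasmic reticulum, rose, with 377, 454 and 421 CPM in erlotinib hearts, against 283, 326 and 278 CPM in water hearts (log2 0.50 ± 0.08, adjusted p = 0.0385).

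The steepest fall among called genes was that of Aqp4, a water channel of brain and striated muscle. It had 2.18, 2.85 and 2.87 CPM in erlotinib hearts, against 8.89, 18.9 and 14.4 CPM in water hearts (log2 -2.41 ± 0.40, adjusted p = 0.0447). The water libraries spread widely, yet the lowest of them was more than 3 times the highest erlotinib library. Aqp8, another water channel, was above water without passing (log2 1.13 ± 0.37, adjusted p = 0.19). Agtr1a, the type 1 angiotensin II receptor, fell, with 25.7, 25.9 and 23.1 CPM in erlotinib hearts, against 39.1, 37.4 and 35.2 CPM in water hearts (log2 -0.58 ± 0.10, adjusted p = 0.0385). Lrp4, an agrin receptor that also binds Wnt inhibitors, had 9.86, 11.1 and 9.62 CPM in erlotinib hearts, against 15.6, 16.6 and 19.9 CPM in water hearts (log2 -0.77 ± 0.13, adjusted p = 0.0391). Gypc, glycophorin C of the membrane skeleton, had 30.8, 29.2 and 22 CPM in erlotinib hearts, against 51.3, 47.1 and 42.8 CPM in water hearts (log2 -0.78 ± 0.12, adjusted p = 0.0385). Eif2c1, the Argonaute protein now named Ago1, fell by 0.47 on the log2 scale (SE 0.08, adjusted p = 0.0447). Aff3, a nuclear protein of transcription elongation, had 2.62, 3.42 and 2.20 CPM in erlotinib hearts, against 7.37, 6.29 and 7.88 CPM in water hearts (log2 -1.38 ± 0.24, adjusted p = 0.039). The other named falls had log2 fold changes of -0.94 for the kelch protein Klhl33, -0.82 for Lonrf2, -0.75 for the phospholipase C-like protein Plcl2, -0.74 for the membrane protein Lrrc15, -0.73 for Nhsl1 and -0.45 for Plxdc2. In all of these the groups did not overlap.

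Enah, an actin regulator of the intercalated disc and costamere, had 264, 330 and 312 CPM in erlotinib hearts, against 207, 206 and 203 CPM in water hearts (log2 0.56 ± 0.09, adjusted p = 0.0385). Mypn, myopalladin, a Z-disc protein, had 268, 267 and 292 CPM in erlotinib hearts, against 196, 217 and 212 CPM in water hearts (log2 0.40 ± 0.07, adjusted p = 0.0385). Of 33 sarcomere and Z-disc genes, 8 lay above water without overlap, where 10.2% of all genes did. In this list 27 were above 0 with a median of 0.12 and no call. The median was 0.07 without Erlotinib_1376. Flnc, filamin C, had 503, 906 and 721 CPM in erlotinib hearts, against 453, 399 and 355 CPM in water hearts (log2 0.82 ± 0.19, adjusted p = 0.0899), and Mybpc3, myosin-binding protein C, a log2 fold change of 0.25 ± 0.08 (adjusted p = 0.183). Of 19 genes of the fetal and hypertrophy list, 7 lay above water without overlap, where 10.2% of all genes did. In this list 13 were above 0 with a median of 0.09, and none was called. The median was 0.04 without Erlotinib_1376. Nppb, which encodes B-type natriuretic peptide, had 516, 644 and 902 CPM in erlotinib hearts, against 115, 205 and 169 CPM in water hearts (log2 2.07 ± 0.45, adjusted p = 0.0924). The lowest erlotinib library was more than 2 times the highest water library. Xirp1, an actin-binding protein of the intercalated disc, had 392, 757 and 605 CPM in erlotinib hearts, against 261, 344 and 259 CPM in water hearts (log2 1.02 ± 0.20, adjusted p = 0.0604). Ankrd1, a stress-induced titin-binding protein, had 2160, 2810 and 2980 CPM in erlotinib hearts, against 1790, 1590 and 1320 CPM in water hearts (log2 0.76 ± 0.16, adjusted p = 0.0727). Nppa, the atrial natriuretic peptide, had 234, 197 and 196 CPM in erlotinib hearts, against 138, 288 and 162 CPM in water hearts (log2 0.09 ± 0.65, adjusted p = 0.963). The myosin heavy chains Myh6 (log2 0.07 ± 0.07, adjusted p = 0.714) and Myh7 (log2 0.12 ± 0.08, adjusted p = 0.516) and the calcium pump Atp2a2 (log2 -0.02 ± 0.06, adjusted p = 0.9) were within 0.2 of 0.

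The remaining rises came from several processes. Clec4e, a pattern receptor of myeloid cells, had 59 counts summed over erlotinib hearts and 8 over water hearts, a ratio of 7.21 with a 95% exact interval of 3.43 to 17.5 for counting error (log2 2.79 ± 0.50, adjusted p = 0.0447). Pde4c, a phosphodiesterase that degrades cAMP, rose by 0.63 ± 0.11 on the log2 scale, and the synaptic scaffold Shank3 by 0.56 ± 0.10 (adjusted p = 0.039 for each). Chd7, a chromatin remodeller, rose by 0.45 ± 0.08 (adjusted p = 0.0385). Smaller rises, with log2 fold changes between 0.37 and 0.43, were those of Nus1, a subunit of the enzyme that makes dolichol, Clip1, a microtubule plus-end protein, Dmxl2, Nt5dc3 and Smurf2, a ubiquitin ligase of TGF-beta signalling.

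Of 13 ephrins and Eph receptors, 11 were below 0 with a median of -0.31, although the called member, Epha2, rose. Efnb3 had 82.2, 79.2 and 86.3 CPM in erlotinib hearts, against 107, 115 and 115 CPM in water hearts (log2 -0.45 ± 0.09, adjusted p = 0.0537), and Efna5 a log2 fold change of -0.31 ± 0.09 (adjusted p = 0.136). Of 27 genes of cholesterol and fatty acid synthesis, 8 lay below water without overlap and none above. Of all genes, 10.4% lay below and 10.2% above. In this list 20 were below 0 with a median of -0.20. The median was -0.31 without Erlotinib_1375. The desaturase Scd2 had a log2 fold change of -0.57 ± 0.19 and the mevalonate pathway enzyme Mvd one of -0.80 ± 0.27 (adjusted p = 0.189 for each). Of 21 clock genes, 13 were below 0 with a median of -0.14, which was -0.23 without Erlotinib_1374, -0.08 without Erlotinib_1376 and -0.09 without Control_1367. The repressor Per1 was above water (log2 0.42 ± 0.17, adjusted p = 0.258). Hlf, a clock output factor, had 25.4, 19.7 and 13.8 CPM in erlotinib hearts, against 44.9, 35.5 and 31.8 CPM in water hearts (log2 -0.93 ± 0.18, adjusted p = 0.0605), and the repressor Bhlhe41 was at a log2 fold change of -0.82 ± 0.27 (adjusted p = 0.189). The labels do not state the time of day at which hearts were taken. On the list of p53 targets and cell death, 18 of 28 genes were above 0 with a median of 0.07. Its member of smallest p, Bcl2l11, which encodes the proapoptotic protein BIM, had 12.4, 10.8 and 11.6 CPM in erlotinib hearts, against 18.5, 15.4 and 20.1 CPM in water hearts (log2 -0.63 ± 0.12, adjusted p = 0.0537).

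**Figure D4:**
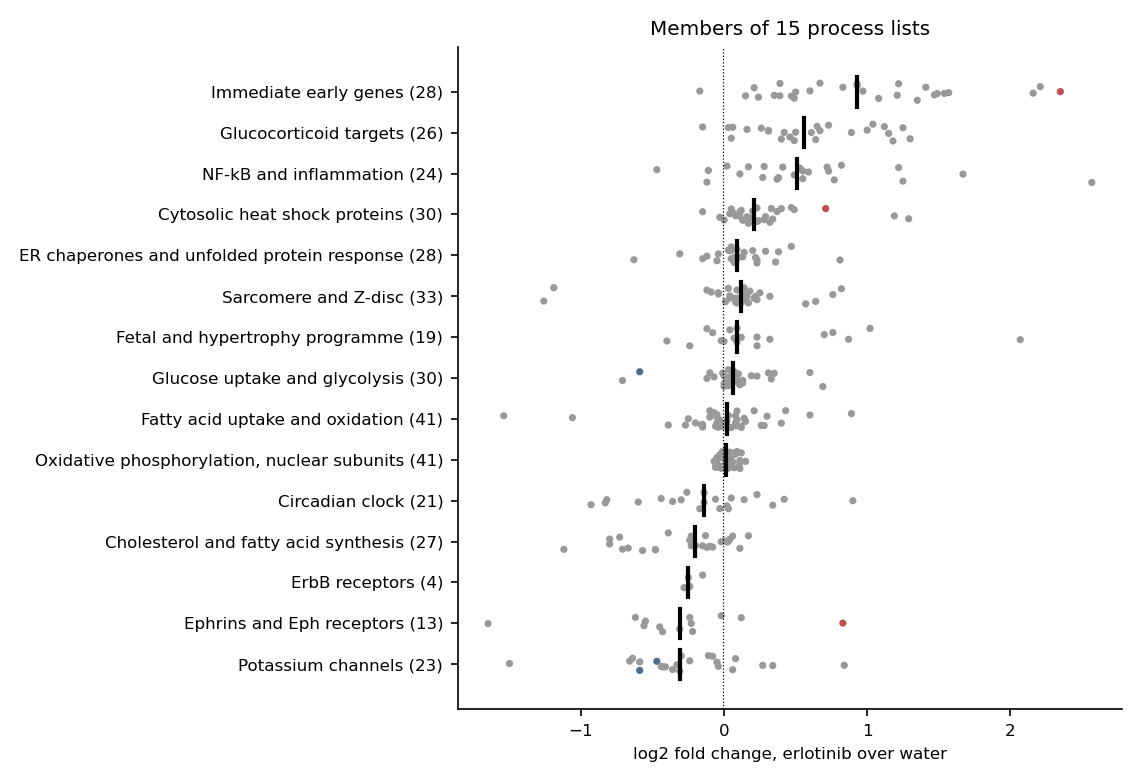
Log2 fold change of erlotinib over water for each tested member of 15 process lists (points, number of members in brackets, red called higher, blue called lower) with the list median (bars) and the median of all genes (dotted line, -0.008). Medians run from -0.31 for potassium channels and ephrins to 0.93 for immediate early genes.

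Markers of other cell types moved with some of these results, and in whole hearts fewer cells of a type and less RNA per cell cannot be told apart. Markers of atrium and conduction tissue had a score of 0.439, -0.511 and -1.12 in erlotinib hearts, against 0.573, 0.626 and 0.386 in water hearts. By score Erlotinib_1374 lay within the water range. Summed levels overlapped, at 1680 to 2070 CPM in erlotinib hearts and 1690 to 2130 CPM in water hearts. Of 22 members 17 were below 0, with a median of -0.57. Without overlap, 6 lay below water and 1, Kcna5, above it, where 10.4% of all genes lay below and 10.2% above. The cardiac transcription factor Tbx5, on that list, was at a log2 fold change of -0.63 ± 0.15 (adjusted p = 0.092). With this score as a covariate 0 genes were called, 1653 genes had an unadjusted p under 0.05 and the smallest adjusted p was 0.0617. The log2 fold changes of the 39 genes were then 0.809 to 1.12 of their value without it, with a median of 0.982, and their SE was 1.14 times as large in the median. Neutrophil markers had 9 of 10 genes above 0 with a median of 1.35, and summed levels of 28.6 to 112 CPM in erlotinib hearts and 14.6 to 41.2 CPM in water hearts. S100a9 had 7.04, 28.3 and 37.9 CPM in erlotinib hearts, against 5.86, 11.3 and 2.09 CPM in water hearts (log2 1.94 ± 0.75, adjusted p = 0.269), and the collagenase Mmp8 a log2 fold change of 3.06 ± 0.92 (adjusted p = 0.164). Erlotinib_1374 lay within the water range in the neutrophil score, and the list median was 0.9 without Erlotinib_1376. Of 5 granule genes under the filter, Ngp had 65 counts summed over erlotinib hearts and 8 over water hearts, Ltf 21 and 8, Camp 10 and 3, Mpo 0 and 1, and Elane 0 in both groups. The part of these cells in the values of Clec4e and the inflammatory genes was not tested.

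Fibroblast markers had 18 of 19 members below 0 and a median of -0.20. Where 10.4% of all genes lay below water without overlap, 5 of these markers did. Their summed levels were 3990 to 4440 CPM in erlotinib hearts and 4490 to 5660 CPM in water hearts. The scores were -0.00477, -0.0446 and -0.00134 in erlotinib hearts, against -0.0692, 0.298 and 0.445 in water hearts. By score Control_1365 lay below every erlotinib library. The median was -0.38 without Control_1365, -0.12 without Control_1367 and -0.06 with the atrial score as a covariate. Pdgfra, the receptor that marks fibroblasts, had 60.7, 57.4 and 58.7 CPM in erlotinib hearts, against 71.2, 82.7 and 87.8 CPM in water hearts (log2 -0.45 ± 0.11, adjusted p = 0.0954). Endothelial markers had 18 of 24 above 0 with a median of 0.20 and summed levels of 3420 to 3890 CPM in erlotinib hearts and 2980 to 3240 CPM in water hearts. The endothelial median was 0.12 without Erlotinib_1375. Markers of endocardium and lymphatic endothelium lay on the other side, with 8 of 9 below 0 and a median of -0.29. Robo4 (log2 0.49 ± 0.09, adjusted p = 0.0504) and the junction protein Esam (log2 0.68 ± 0.13, adjusted p = 0.0604) were the endothelial members of smallest p. Kdr, the main VEGF receptor, had overlapping groups (log2 -0.13 ± 0.31, adjusted p = 0.884). Vegfa, its ligand, had 557, 536 and 558 CPM in erlotinib hearts, against 370, 327 and 423 CPM in water hearts (log2 0.56 ± 0.16, adjusted p = 0.148). Control_1367 stood apart in the 4 liver markers tested, with a score of 3.16 where the other 5 libraries had -1.25 to 0.972. None of these 4 was called, where 0.29% of all genes were. The part of this tissue in the values of other genes was not tested.

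**Figure D5:**
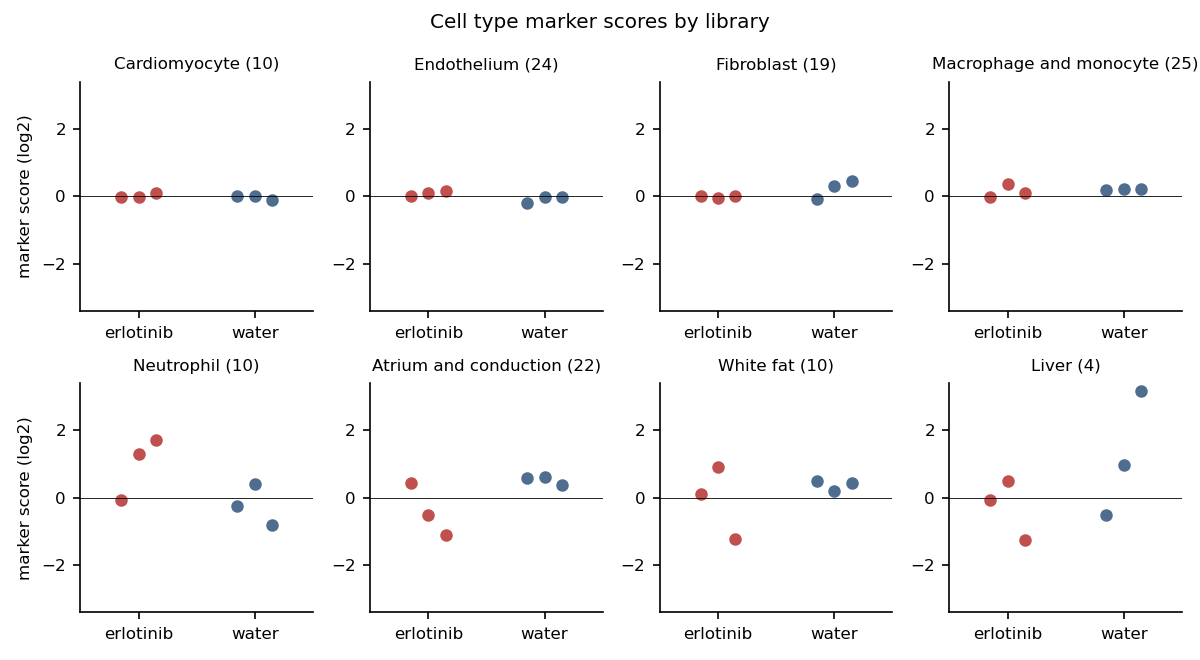
Marker score of each library (points, log2 scale, number of markers tested in brackets) for 8 cell types or tissues, erlotinib left and water right in each panel. Cardiomyocyte scores differ by less than 0.2 between any 2 libraries, and atrial scores span -1.12 to 0.439 in erlotinib hearts.

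Erlotinib hearts were set against the mean of sunitinib and sorafenib hearts as well, a contrast that holds no water library but uses the same erlotinib libraries, so its calls are no independent support. In it 670 genes were higher (4.99%) and 798 lower (5.94%) with erlotinib, 1468 in all, against 674 without Erlotinib_1375, 286 without Erlotinib_1376 and 942 without Sorafenib_1373. Spry4 had 11 to 13.7 CPM in sunitinib hearts and 15.2 to 18.9 CPM in sorafenib hearts, all below the erlotinib libraries (log2 1.31 ± 0.12 over the mean of both drugs, adjusted p = 0.00038). Kcnh2 had 113 to 148 CPM in sunitinib hearts and 99.6 to 112 CPM in sorafenib hearts (log2 -0.68 ± 0.10, adjusted p = 0.00267), so no other drug group held a library as low as those of erlotinib. Aqp4 had 11.5 to 28.5 CPM in sunitinib hearts and 4.69 to 6.98 CPM in sorafenib hearts, all above the erlotinib libraries (log2 -2.07 ± 0.37, adjusted p = 0.00833). Agtr1a and Dnajb5 overlapped with a drug group. Agtr1a had 24.1 to 27.3 CPM in sorafenib hearts, which overlaps the erlotinib range, and 30.7 to 39.7 CPM in sunitinib hearts (log2 -0.29 ± 0.09, adjusted p = 0.0497). Dnajb5 had 131 to 185 CPM in sunitinib hearts and 181 to 189 CPM in sorafenib hearts and did not pass (log2 0.25 ± 0.09, adjusted p = 0.087).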

How the data were processed

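PolyA RNA of mouse heart was sequenced in 12 libraries, 3 per group, from a stranded library kit, per the labels' protocols. The authors deposited, per gene, RSEM expected counts, TPM and a scaled signal, with reads aligned to mm9, and the submitters' processing notes name RSEM, Picard 1.88 and SAMtools 1.2. The deposited TPM values sum to 54.9 to 60.8% of 1e+06 per library and were not used for tests. The deposited signal has a 75th percentile near 1000 in each library and was used only with limma, as log2(signal + 1). Expected counts (14.3 to 16.5 M per library, 89.5 to 90.3% of values whole) were rounded to whole numbers. Genes passing edgeR's filterByExpr over all 12 libraries were kept (13440 of 21705). Of the 8265 others, 4576 were at 0 in all 6 erlotinib and water libraries.

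TMM normalisation and a robust quasi-likelihood fit over all 4 groups (edgeR 4.0.16, R 4.3.3) gave both contrasts, with Benjamini-Hochberg adjustment over all tested genes. Alternatives were DESeq2 1.42.0, another normalisation, no filter, leaving out the 20 most abundant genes, only the groups compared, limma 3.58.1 on the signal, a covariate for the atrial marker score, and leaving out each library. The fits were tested on simulated data. Named genes are the up to 15 largest rises and falls that passed at 1 CPM or more without overlap, those passing in 4 of 6 leave-one-out fits, up to 4 members of smallest p of each of 65 gene lists, and a fixed set of ErbB, STAT3, fetal and metabolic genes. Hspe1, Hspd1, Dnajb4, Hsph1, Bcl10, Kcnd2, Kcnq1, Plxdc2, Mypn, Nus1, Clip1, Dmxl2, Nt5dc3 and Smurf2 were named after their values were seen. So were Dnaja1, Fkbp4, Hspa1a, Hspa1b, Hspb6, Trib3, Ddit3 and Asns. Some genes that the rule names are not reported here. Members and lists were chosen with earlier results of these data known. Lists are described by counts and medians, with no test of their own. Intervals and limits of a 0 cover counting error only.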

Additional observations from a re-analysis of the deposited data

How the results depend on the processing

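Against 39 genes called between erlotinib and water hearts, DESeq2 called 363, and 0 were called with a covariate for the atrial marker score. Fitting only the groups compared gave 28 calls, of which 16 were among the 39, and limma gave 49, of which 31 were. Leaving out 1 library gave 0 to 235 calls. For erlotinib against the other drugs, leaving out 1 library gave 286 to 1403 calls, against 1468. On the scaled signal, limma gave 30.6% of calls higher, against 59.0%, for the water contrast, and 28.8%, against 45.6%, for the drug contrast. With limma the median log2 fold change of all genes was -0.059, against -0.008, for the water contrast. For the drug contrast it was -0.044, against -0.003. The cause was not tested. DESeq2 gave no adjusted p for Cyp1a1 and Clec4e. No called gene changed sign in any fit. Signs reversed in some fits for genes that were not called, among them those that follow, whose log2 fold changes were smaller than their SE. Over the fits without 1 library the log2 fold change ran from -0.33 to 0.09 for Erbb3, -0.11 to 0.48 for Nppa, -0.04 to 0.0 for Atp2a2, -0.44 to 0.22 for Kdr, -0.02 to 0.9 for Txnip, -0.08 to 0.03 for Hspd1 and -0.03 to 0.14 for Hspe1. Kdr was at 0.01 with the covariate and Hspe1 at -0.01 with limma. No paired analysis was possible because the replicate numbers in the labels are not shared between groups. With 3 libraries per group and most adjusted p values near the threshold, single calls are uncertain.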

Other observations

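Several genes outside the groups above lay apart from water in all libraries without passing. Slc38a2, a neutral amino acid transporter, had 514, 679 and 643 CPM in erlotinib hearts, against 222, 356 and 388 CPM in water hearts (edgeR log2 0.93 ± 0.19, adjusted p = 0.0681). Its list, of polyamine, arginine and amino acid transport, had 11 of 19 genes above 0 and a median of 0.04. Slc40a1, the iron exporter ferroportin, had 8.51, 11.7 and 8.82 CPM in erlotinib hearts, against 21.1, 13.6 and 14.3 CPM in water hearts (log2 -0.75 ± 0.17, adjusted p = 0.0699). Dsg2, a desmosomal cadherin of the intercalated disc, had 77.1, 76.6 and 77.4 CPM in erlotinib hearts, against 105, 96.6 and 98.4 CPM in water hearts (log2 -0.38 ± 0.08, adjusted p = 0.0604).

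The basement membrane collagen Col4a1 had 426, 528 and 622 CPM in erlotinib hearts, against 294, 356 and 368 CPM in water hearts (log2 0.63 ± 0.16, adjusted p = 0.114). The matrix list as a whole had a median of -0.04 over 39 genes, which was -0.19 without Control_1365 and 0.13 without Control_1367. Of 9 Schwann cell and neuron markers, 4 lay below water without overlap, where 10.4% of all genes did. In this list 7 were below 0 with a median of -0.21. The median was -0.33 without Erlotinib_1374 and -0.12 without Erlotinib_1376.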
